A study of Mus musculus with 12 samples.

Results

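The genes of the proteasome, the protease that degrades ubiquitin-tagged proteins, were followed in BV2 cells, an immortalised line of mouse microglia. Genes were taken from the deposited expression table when their symbol began with Psma, Psmb, Psmc, Psmd, Psme, Psmf or Psmg and a number and when they had a protein-coding transcript, and the 3 immunoproteasome genes Psmb8, Psmb9 and Psmb10 were left out. The rule gave 47 of 27487 genes. Of these, 45 encode subunits, activators, an inhibitor or assembly chaperones, and 2, Psmc3ip and Psme3ip1, match by their names only. Another 4 genes with such symbols, Psma8 and the pseudogenes Psma5-ps, Psmb6-ps and Psmb7-ps2, had no protein-coding transcript in the table. The filter on low counts was passed by 46 of the 47 genes; Psmb11, a beta subunit of the thymus, reached at most 8 counts in a library and was not tested.

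Polyadenylated RNA was sequenced from 12 libraries in 3 groups of 4. BV2 cells were grown alone (CTR), with primary mouse neutrophils (Neu), or with primary mouse neutrophils that had been given phorbol 12-myristate 13-acetate, a protein kinase C activator used to make neutrophils cast out their chromatin as extracellular traps (Neu+NETS). Every group is thus 1 immortalised line, and the labels also name retina as the tissue. The sources used here do not give the strain or age of the neutrophil donors, the cell ratio, the time in culture, the fate of the neutrophils before lysis or any carry-over of the stimulant. They do not say that libraries came from separate cultures either, so a p-value reflects only the scatter among these libraries, which may be technical.

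Levels are given as FPKM, fragments scaled to gene length and library size, and differences as log2 fold changes from edgeR's quasi-likelihood test on the estimated counts, each with its standard error and a two-sided p adjusted by Benjamini-Hochberg over the 16387 genes tested. A gene was called at an adjusted p under 0.05. Totals ran from 53512190 to 68316549 estimated counts per library, with what appear to be about 4 counts to a fragment. The 8 microglial and macrophage markers examined summed to 1113 to 1182 FPKM in CTR, 1205 to 1252 in Neu and 777 to 789.9 in Neu+NETS, with Aif1 low throughout at means of 1.52, 1.65 and 0.654 FPKM. The 8 neutrophil markers analysed here summed to 0.324 to 1.20, 1.304 to 1.64 and 0.0852 to 0.389 FPKM, and 7 of the 8 stayed under 1 FPKM in every library. The retinal and endothelial markers examined summed to at most 3.15 and 0.108 FPKM. The part of the lower microglial sum of Neu+NETS in the results was not tested. Neu replicate 4 differed more from the other Neu libraries (chi-square per degree of freedom 4.14 to 4.46, on counts divided by 4) than those did among themselves (1.85 to 2.07), and the counts of called genes without it are given with the main ones. In bulk RNA, fewer cells of a type and less RNA per cell cannot be told apart.

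The 26S proteasome is a barrel, the 20S core particle, capped by the 19S regulatory particle. Alpha subunits form the outer rings and the gate of the barrel, and beta subunits form the inner rings, where Psmb5, Psmb6 and Psmb7 carry the active sites. The 19S base holds a ring of ATPases that unfolds the substrate, and the 19S lid removes its ubiquitin. Other caps, PA28 and PA200, open the barrel without ubiquitin. In phagocytes exposed to interferon, inducible beta subunits replace the constitutive active ones and PA28 alpha and beta are induced, which changes the peptides offered to MHC class I. When proteasome activity is short, the transcription factor NRF1, encoded by Nfe2l1, raises most subunit genes together through antioxidant response elements.

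Promoter sequences are shown for 4 genes whose values go different ways below: Psmb3, which followed the majority of the family, Psmb6 and Psmd8, which did not, and Psme1, a PA28 subunit. They span 250 bases before to 50 bases after the gene's start and were taken by symbol from RefSeq on build GRCm38.p6, an older build than the GRCm39 of the expression data. Capitals mark matches, on either strand, to 3 motifs: TGANNNNGC, the core of the antioxidant response element; CCAAT, the box bound by NF-Y; and TTTC followed by any 2 bases and TTTC again, a core of interferon-stimulated response elements, which was added after the values were seen. No match overlapped another in these 4 sequences.
Psmb3 promoter, chr11:97703184-97703483, plus strand: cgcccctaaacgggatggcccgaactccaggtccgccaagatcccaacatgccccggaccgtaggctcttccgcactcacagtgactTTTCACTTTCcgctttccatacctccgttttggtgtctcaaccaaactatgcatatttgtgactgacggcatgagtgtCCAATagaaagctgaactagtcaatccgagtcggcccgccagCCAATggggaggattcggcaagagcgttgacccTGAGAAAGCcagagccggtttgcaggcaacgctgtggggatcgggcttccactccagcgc
Psmb6 promoter, chr11:70525107-70525406, plus strand: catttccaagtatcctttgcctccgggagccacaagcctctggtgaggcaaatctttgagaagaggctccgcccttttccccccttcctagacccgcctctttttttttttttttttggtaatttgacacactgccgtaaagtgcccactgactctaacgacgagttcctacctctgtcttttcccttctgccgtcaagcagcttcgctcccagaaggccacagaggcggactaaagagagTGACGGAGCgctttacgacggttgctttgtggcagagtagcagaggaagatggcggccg
Psmd8 promoter, chr7:29180624-29180923, minus strand: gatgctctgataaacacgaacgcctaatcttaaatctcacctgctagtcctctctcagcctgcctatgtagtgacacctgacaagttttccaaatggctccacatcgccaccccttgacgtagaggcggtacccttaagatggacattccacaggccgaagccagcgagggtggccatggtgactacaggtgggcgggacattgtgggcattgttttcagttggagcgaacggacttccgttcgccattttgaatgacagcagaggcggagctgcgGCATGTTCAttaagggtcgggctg
Psme1 promoter, chr14:55578244-55578543, plus strand: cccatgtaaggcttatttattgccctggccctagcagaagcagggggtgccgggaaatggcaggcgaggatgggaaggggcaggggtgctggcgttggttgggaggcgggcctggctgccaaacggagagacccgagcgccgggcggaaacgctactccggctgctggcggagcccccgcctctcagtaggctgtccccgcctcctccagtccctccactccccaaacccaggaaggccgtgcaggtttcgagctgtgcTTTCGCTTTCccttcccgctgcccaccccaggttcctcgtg

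Matches to the antioxidant core lay 10 bases before the start in Psmb3 and 9 bases before it in Psmb6, and on the other strand 26 bases after it in Psmd8. The NF-Y box began 85 and 43 bases before the start of Psmb3, and the interferon core 163 bases before the start of Psmb3 and 9 bases after that of Psme1. The table matched 40 of the 47 genes. Among those 40 the antioxidant core was present in 23 (57.5%), against 45.0% of all 27025 genes with a promoter. The NF-Y box was present in 15 (37.5%) against 41.1%. The interferon core was present in 5 (12.5%: Psmb3, Psmd4, Psmd9, Psme1 and Psmg4) against 3.99%. A gene counted when any of its listed promoters held a match. These are matches of letters in a window of fixed length, and they say nothing of binding.

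In cells with unstimulated neutrophils, most proteasome transcripts were lower than in BV2 cells alone. Of the 46 tested, 32 (69.6%) were called lower and 3 (6.52%) higher, and 11 were not called; over all genes tested, 27.9% were called lower and 26.1% higher. The median log2 fold change was -0.24 over the family and 0.020 over all genes. Single changes were small: 8 of 46 passed 0.5 on the log2 scale, all of them downward, and 1, that of Psmc3ip, passed 1. FPKM ranges of the 2 groups were apart and lower in Neu for 36 genes, against 29.0% of all genes, and apart and higher for 2, against 22.5%. Without Neu replicate 4, 30 were called lower and 3 higher.

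In cells with stimulated neutrophils, most proteasome transcripts were higher than in BV2 cells alone. In Neu+NETS, 32 of 46 (69.6%) were called higher than CTR and 5 (10.9%) lower, where 21.6% of all genes were higher and 23.7% lower. The median was 0.21, against 0.00021 over all genes, and 5 genes passed 0.5 on the log2 scale, 2 upward (Psmd11 and Psmc6) and 3 downward (Psme1, Psme2 and Psme2b). Ranges were apart and higher for 33 genes, against 23.7% of all genes, and lower for 4, against 18.4%. Set directly against Neu, 38 of 46 (82.6%) were higher and 6 (13.0%) lower in Neu+NETS, against 29.4% and 33.1% of all genes; the median was 0.49, against -0.049 over all genes, and 27 genes passed 0.5, 23 upward and 4 downward. Between the co-cultures, ranges were apart and higher for 39, against 32.6% of all genes, and lower for 5, against 26.9%. Without Neu replicate 4, the counts were 33 higher and 5 lower against CTR and 38 higher and 6 lower against Neu. The 3 comparisons share groups of libraries and are not independent of each other. No called change of a family member turned its sign under any of the 23 alternative settings.

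**Figure D1:**
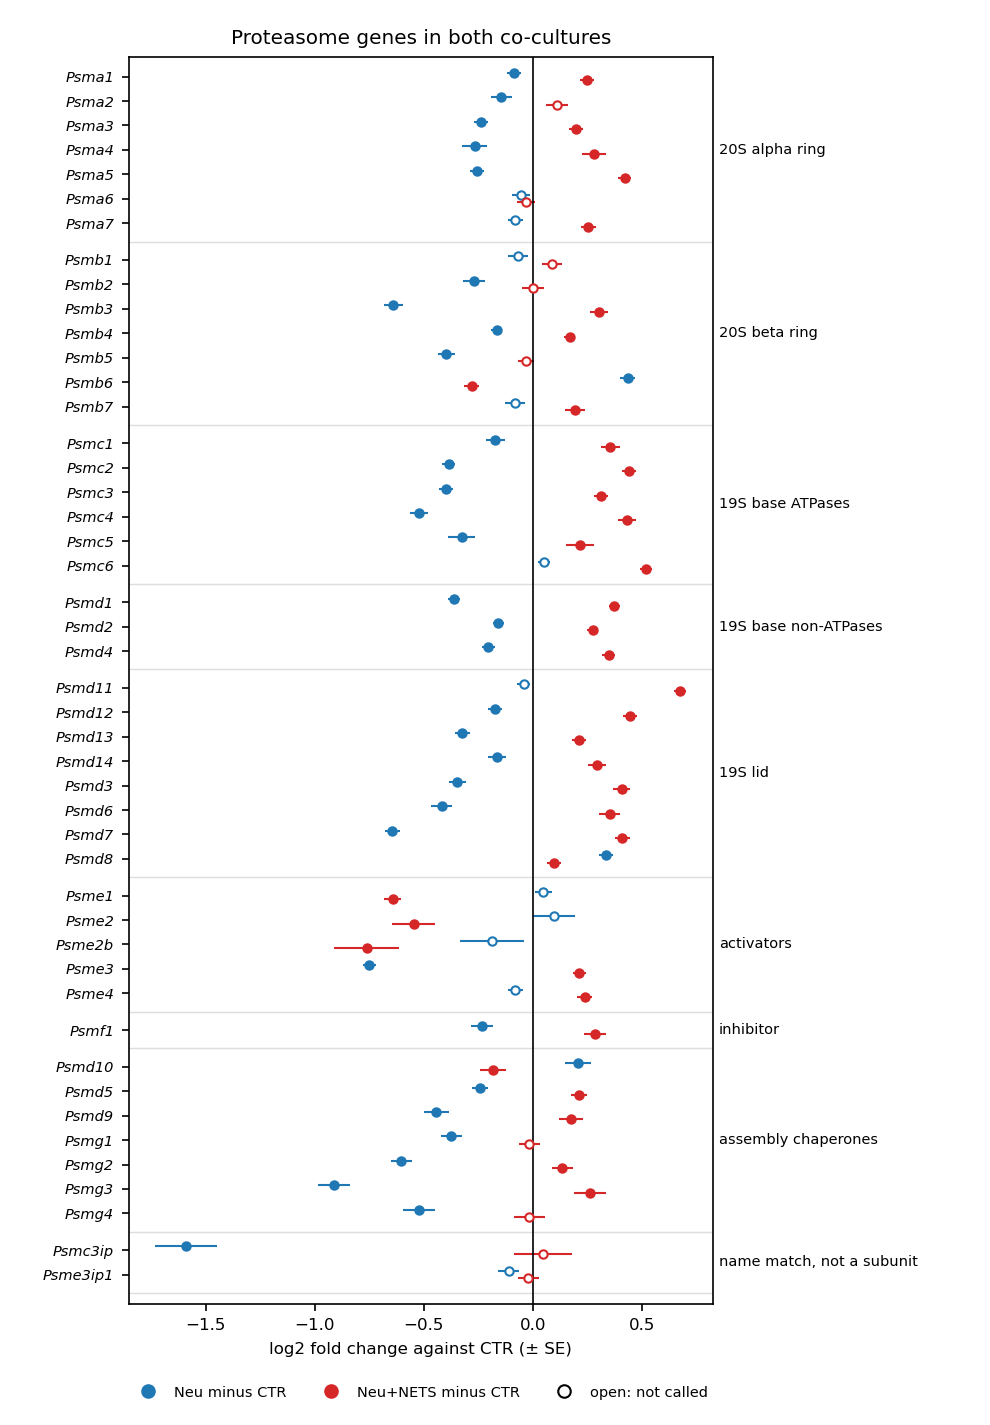
Log2 fold change against CTR with its SE for each of the 46 tested genes, grouped by role, in Neu (blue) and Neu+NETS (red); filled points were called by edgeR at an adjusted p under 0.05. Most blue points lie left of 0 and most red points right of it. Psmb6, Psmd8 and Psmd10 have filled blue points right of 0, and the PA28 genes Psme1, Psme2 and Psme2b have red points at -0.55 or lower.

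In the alpha ring, 5 of 7 genes were lower in Neu and 0 higher, 5 were higher in Neu+NETS and 0 lower, and 6 were higher in Neu+NETS than in Neu. Over all genes tested, 27.9% were lower and 26.1% higher in Neu, and 21.6% were higher and 23.7% lower in Neu+NETS. Between the co-cultures, 29.4% of all genes were higher in Neu+NETS. Psma5 rose furthest in this ring with stimulated neutrophils. Its group means were 95.4 FPKM in CTR, 76.9 in Neu and 132 in Neu+NETS, and the log2 fold changes were -0.26 ± 0.031 (adjusted p = 2.0e-06) in Neu and 0.42 ± 0.031 (adjusted p = 8.2e-09) in Neu+NETS; a pseudogene, Psma5-ps, may share its reads. Psma3 and Psma4 changed by -0.24 ± 0.031 and -0.27 ± 0.056 on the log2 scale in Neu and rose by 0.20 ± 0.031 and 0.28 ± 0.056 in Neu+NETS. Psma1 rose in Neu+NETS by 0.25 ± 0.032 (adjusted p = 6.4e-06). Its lower level in Neu, -0.088 ± 0.032 (adjusted p = 0.0275), lost its call in 10 alternative settings, among them DESeq2 (adjusted p = 0.1) and leaving out CTR replicate 1 (0.0728), 2 (0.053) or 3 (0.0828), or Neu replicate 1 (0.0508), 2 (0.0508) or 4 (0.0903).

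Psma6, the third most abundant transcript of the family in CTR, was not called in any comparison by edgeR. It measured 135, 135, 129 and 125 FPKM in CTR, 121, 121, 126 and 116 in Neu and 126, 136, 138 and 130.2 in Neu+NETS. The 3 groups overlapped, and the log2 fold changes were -0.057 ± 0.040, -0.032 ± 0.040 and 0.025 ± 0.040 for Neu against CTR, Neu+NETS against CTR and Neu+NETS against Neu. With limma on log2(FPKM + 1), Psma6 was called lower in Neu than in CTR (-0.11, adjusted p = 0.0159) and higher in Neu+NETS than in Neu (0.13, adjusted p = 0.00651). Psma2 was lower in Neu (log2 change -0.15 ± 0.049, adjusted p = 0.0185), a call lost without CTR replicate 2 (adjusted p = 0.077) or Neu replicate 4 (0.0713). It was also lost with upper quartile scaling (0.108) and with no filter on low counts (0.0539). In Neu+NETS the value of Psma2 against CTR, 0.11 ± 0.049 (adjusted p = 0.0793), passed the threshold without CTR replicate 2 (0.0126) or Neu replicate 4 (0.0407). It also passed with other methods, among them DESeq2 (0.0183), limma on log2(FPKM + 1) (0.00985), RLE scaling (0.0314) and no scaling beyond totals (0.0108). Psma7 rose in Neu+NETS by 0.25 ± 0.035 (adjusted p = 1.3e-05); in Neu it measured -0.082 ± 0.035 (adjusted p = 0.0562), and 0.0137 was its adjusted p without Neu replicate 2.

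In the beta ring, the 3 catalytic genes went separate ways: of 7 tested genes, 4 were lower and 1 higher in Neu, 3 higher and 1 lower in Neu+NETS, and 6 higher and 1 lower in Neu+NETS than in Neu. The shares over all genes were 27.9% lower and 26.1% higher in Neu, and 21.6% higher and 23.7% lower in Neu+NETS. Between the co-cultures, 29.4% of all genes were higher and 33.1% lower in Neu+NETS. Psmb3, a structural beta subunit on chr11:97594225-97604326, plus strand of GRCm39 (ENSMUSG00000069744), gave 41.98, 43.4, 39.99 and 38.9 FPKM in CTR, 25.6, 25.5, 25.4 and 24.96 in Neu and 55.5, 51.99, 51.5 and 50.9 in Neu+NETS. All Neu libraries lay below and all Neu+NETS libraries above those of CTR. The log2 fold change was -0.64 ± 0.042 (adjusted p = 8.2e-10) in Neu, 0.30 ± 0.041 (adjusted p = 1.1e-05) in Neu+NETS, and 0.94 ± 0.042 (adjusted p = 2.9e-12) between the co-cultures, the widest gap of any 20S gene.

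Psmb6, the subunit with caspase-like activity, went the other way. The gene, on chr11:70416193-70418684, plus strand of GRCm39 (ENSMUSG00000018286), measured 108, 119, 108 and 111 FPKM in CTR, 142, 146, 143 and 150.003 in Neu and 97.7, 92.1, 96.8 and 93.5 in Neu+NETS. Here the Neu libraries were the highest and the Neu+NETS libraries the lowest, with no overlap. Its pseudogene Psmb6-ps reached at most 0.0756 FPKM in a library. Psmb6 rose in Neu by 0.43 ± 0.035 (adjusted p = 1.4e-08) and was lower in Neu+NETS (log2 change -0.28 ± 0.035, adjusted p = 4.7e-06); against Neu, the difference was -0.72 ± 0.035 (adjusted p = 1.3e-11).

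The other catalytic genes did not follow Psmb6. Psmb5, with chymotrypsin-like activity and the highest level of the family in CTR, measured 163, 176, 161 and 160.4 FPKM in CTR, 118, 116, 123 and 125 in Neu and 163, 171, 170.3 and 163 in Neu+NETS. Only the Neu libraries stood apart: the log2 fold change was -0.40 ± 0.038 (adjusted p = 9.4e-08) in Neu and -0.034 ± 0.037 (adjusted p = 0.511) in Neu+NETS. Psmb7, with trypsin-like activity, rose in Neu+NETS by 0.19 ± 0.045 (adjusted p = 0.00194) and gave -0.084 ± 0.045 (adjusted p = 0.129) in Neu, where its adjusted p was 0.0379 without CTR replicate 4; it overlaps Nek6 in the genome, and whether strand was used in counting is not stated.

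Of the remaining structural beta genes, Psmb4, second in level, measured 146, 149, 143 and 148 FPKM in CTR, 126, 124, 123 and 129 in Neu and 169, 172, 172 and 168 in Neu+NETS. Its 3 groups did not overlap, and it changed in Neu by -0.17 ± 0.024 and in Neu+NETS by 0.17 ± 0.024 on the log2 scale (adjusted p = 1.6e-05 and 2.4e-05). Psmb2 was lower in Neu (log2 change -0.27 ± 0.051, adjusted p = 2.3e-04) and gave 0.0011 ± 0.051 (adjusted p = 0.989) in Neu+NETS. In the main edgeR fit Psmb1 was called only between the co-cultures, higher in Neu+NETS by 0.16 ± 0.046 (adjusted p = 0.00645). Upper quartile scaling lost that call (0.0535). Its Neu value against CTR, -0.070 ± 0.046 (adjusted p = 0.212), reached 0.0379 without Neu replicate 2 and 0.0233 with limma on log2(FPKM + 1). Its Neu+NETS value against CTR, 0.087 ± 0.046 (adjusted p = 0.14), was called by DESeq2 (0.0364) and by limma on log2(FPKM + 1) (0.0213). It was also called without scaling beyond totals (0.0182). Psmb11 was listed at 0 FPKM in 10 libraries, at 0.00580 in CTR replicate 2 and at 0.0241 in Neu replicate 4. All lay under the 12 counts, taken as 3 fragments, below which an absence is not resolved (counting error only).

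**Figure D2:**
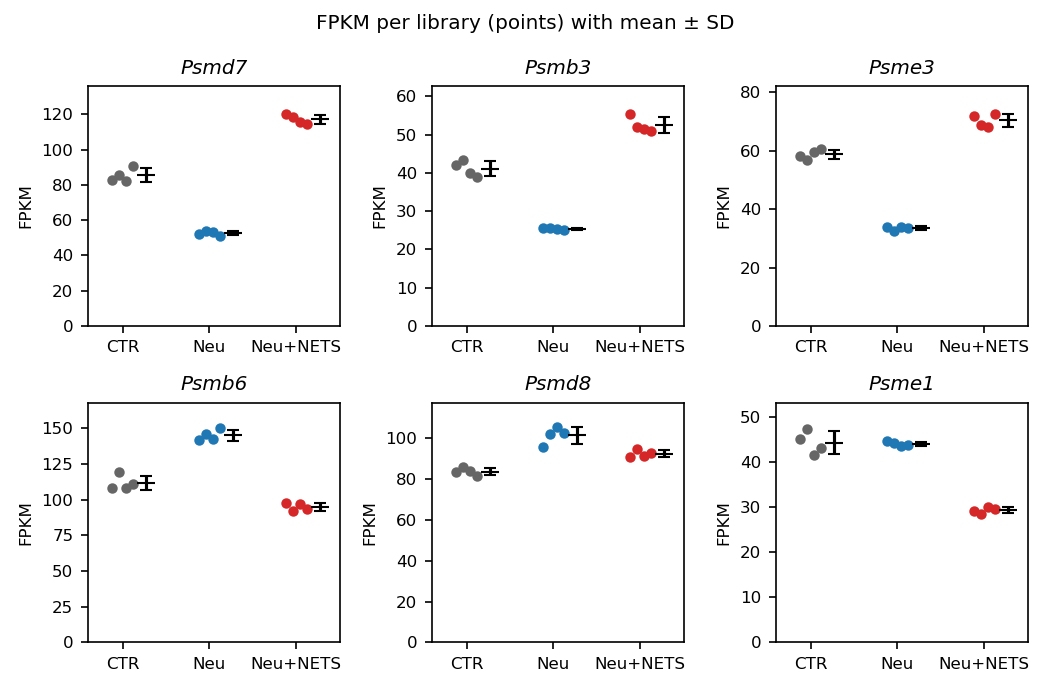
FPKM per library (points) and group mean with SD (bars, n = 4) for 6 genes of the proteasome in CTR, Neu and Neu+NETS, each panel on its own axis from 0. Psmd7, Psmb3 and Psme3 are lowest in Neu and highest in Neu+NETS; Psmb6 has the reverse order, Psmd8 is highest in Neu, and Psme1 is lowest in Neu+NETS.

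In the 19S base, all 6 ATPase genes were higher in Neu+NETS than in CTR, 5 of them were lower in Neu, and 0 were called the opposite way. Beside them, 21.6% of all genes tested were higher in Neu+NETS and 27.9% were lower in Neu. Psmc4 measured 40.5, 45.8, 44.3 and 42.4 FPKM in CTR, 27.1, 29.8, 29.3 and 29.6 in Neu and 60.3, 60.8, 60.2 and 59.9 in Neu+NETS. The groups lay apart in the order Neu, CTR, Neu+NETS, with log2 fold changes of -0.52 ± 0.041 (adjusted p = 8.2e-09) and 0.43 ± 0.040 (adjusted p = 1.6e-07) against CTR and 0.95 ± 0.041 (adjusted p = 2.0e-12) between the co-cultures. Psmc2 had the same order at lower levels, 23.2, 23.9, 24.2 and 23.3 FPKM in CTR, 17.6, 16.7, 17.3 and 17.998 in Neu and 33.03, 33.3, 34.3 and 32.1 in Neu+NETS. It changed by -0.39 ± 0.032 in Neu and by 0.44 ± 0.031 in Neu+NETS (adjusted p = 1.5e-08 and 5.4e-09).

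Psmc6 was the ATPase gene without a call in Neu. Its libraries gave 41.3, 40.04, 39.7 and 38.8 FPKM in CTR, 39.4, 40.8, 39.1 and 39.8 in Neu and 58.97, 59.97, 58.96 and 58.7 in Neu+NETS. CTR and Neu overlapped, at 0.049 ± 0.028 (adjusted p = 0.153), and all Neu+NETS libraries were higher, by 0.52 ± 0.028 (adjusted p = 1.4e-10). Psmc1, among the 3 highest genes over all libraries, measured 137, 136, 126 and 124 FPKM in CTR, 116, 112, 113 and 105 in Neu and 178, 169, 174 and 169.6 in Neu+NETS. It had no overlap between groups and changed by -0.17 ± 0.043 in Neu and 0.35 ± 0.043 in Neu+NETS (adjusted p = 0.00238 and 2.9e-06). Psmc3 changed by -0.40 ± 0.033 and Psmc5 by -0.33 ± 0.063 in Neu, and they rose by 0.31 ± 0.033 and 0.21 ± 0.063 in Neu+NETS.

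The 3 other base genes were all lower in Neu and all higher in Neu+NETS than in CTR. Of all genes tested, 27.9% were lower in Neu and 21.6% higher in Neu+NETS. Psmd1 and Psmd2 encode the large scaffolds of the base, and Psmd4 a ubiquitin receptor. Psmd1 had the widest changes, -0.36 ± 0.026 (adjusted p = 3.4e-09) in Neu and 0.37 ± 0.026 (adjusted p = 4.5e-09) in Neu+NETS, at group means of 32.2 FPKM in CTR, 24.1 in Neu and 43.2 in Neu+NETS. Psmd2, the most abundant of them, stood at 122 FPKM in CTR, 105 in Neu and 153 in Neu+NETS, and changed by -0.16 ± 0.026 and 0.27 ± 0.026. Psmd4 changed by -0.21 ± 0.029 and 0.35 ± 0.029.

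In the lid, 8 of 8 genes of the family were higher in Neu+NETS than in CTR and 6 of 8 were lower in Neu, with 1 higher. Across all genes, 21.6% were higher in Neu+NETS, and 27.9% were lower and 26.1% higher in Neu. Psmd7, a partner of the deubiquitinase Psmd14 on chr8:108307013-108315096, minus strand of GRCm39 (ENSMUSG00000039067), had, with Psmb3, the largest drop in Neu among subunits of the 26S particle. Its libraries measured 82.9, 85.9, 82.2 and 90.96 FPKM in CTR, 52.3, 53.8, 53.1 and 50.9 in Neu and 120.3, 118, 116 and 115 in Neu+NETS. Every Neu library was below, and every Neu+NETS library above, all of CTR. The log2 fold changes were -0.65 ± 0.035 (adjusted p = 8.5e-11), 0.41 ± 0.035 (adjusted p = 5.0e-08) and, between the co-cultures, 1.05 ± 0.035 (adjusted p = 8.3e-14). Psmd14, which cuts ubiquitin chains off the substrate, fell (log2 change -0.17 ± 0.041, adjusted p = 0.00246) in Neu and rose by 0.29 ± 0.041 (adjusted p = 1.6e-05) in Neu+NETS.

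Psmd11 and Psmd12 had the largest rises of the lid with stimulated neutrophils. Psmd11, a scaffold subunit of the lid, measured 21.3, 22.2, 21.8 and 21.6 FPKM in CTR, 19.9, 20.8, 19.9 and 20.6 in Neu and 35.9, 36.2, 36.6 and 34.8 in Neu+NETS. Its Neu+NETS libraries were far above the others, by 0.67 ± 0.029 (adjusted p = 6.9e-12) against CTR, the largest rise of the family in this comparison, while Neu gave -0.044 ± 0.029 (adjusted p = 0.214) with ranges that lay apart by less than 1 FPKM. Psmd12 measured 40.7, 42.1, 40.6 and 40.9 FPKM in CTR, 35.99, 35.01, 34.7 and 34.4 in Neu and 58.5, 55.1, 59.2 and 58.2 in Neu+NETS. It was lower in all Neu libraries (log2 change -0.17 ± 0.033, adjusted p = 2.4e-04) and higher in all Neu+NETS libraries by 0.44 ± 0.033 (adjusted p = 7.7e-09).

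Psmd8 was the exception among the lid genes of the family. Sem1, a lid subunit outside the name rule, was also called higher in Neu (0.36 ± 0.084, adjusted p = 0.0015). The libraries gave for Psmd8 83.4, 86.1, 84.04 and 81.5 FPKM in CTR, 95.7, 102, 106 and 102 in Neu and 90.8, 94.9, 91.6 and 92.98 in Neu+NETS. Neu was highest and CTR lowest, and the Neu+NETS libraries lay between them. It rose in Neu by 0.33 ± 0.032 (adjusted p = 1.0e-07), and its rise in Neu+NETS, 0.095 ± 0.032 (adjusted p = 0.0217), was lost without CTR replicate 4 (adjusted p = 0.067) or Neu+NETS replicate 2 (0.0564). Psmd3, Psmd6 and Psmd13, scaffold subunits of the lid, changed in Neu by -0.35 ± 0.039, -0.42 ± 0.049 and -0.32 ± 0.032, and rose in Neu+NETS by 0.41 ± 0.039, 0.35 ± 0.049 and 0.21 ± 0.032.

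Summed over their genes, both particles were lowest in Neu and highest in Neu+NETS, with wider gaps for the 19S. The 17 genes of the 19S summed to 1004 ± 11.1 FPKM in CTR, 832 ± 9.69 in Neu and 1311 ± 11.3 in Neu+NETS (SD, n = 4), and the 14 genes of the 20S to 1073 ± 30.1, 943 ± 6.29 and 1195 ± 16.3. The ratio of 19S to 20S sums was 0.912 to 0.947 in CTR, 0.877 to 0.886 in Neu and 1.076 to 1.107 in Neu+NETS, with no overlap between groups. Such sums weigh abundant transcripts most, and no test was run on them. Within the 19S the ATPases went from 397 ± 10.5 FPKM in CTR to 316 ± 10.6 in Neu and 523 ± 7.85 in Neu+NETS, and the lid from 376 ± 3.66 to 322 ± 4.02 and 489.8 ± 2.67. The beta ring, in which only Psmb6 was called higher in Neu and lower in Neu+NETS, went from 620 ± 23.1 to 549 ± 5.06 and 655 ± 12.1.

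Among the activators, PA28 alpha and beta stood apart from the barrel. Psme1, which encodes PA28 alpha on chr14:55815580-55818985, plus strand of GRCm39 (ENSMUSG00000022216), measured 45.2, 47.5, 41.6 and 43.1 FPKM in CTR, 44.7, 44.2, 43.7 and 43.9 in Neu and 29.3, 28.5, 30.1 and 29.6 in Neu+NETS. CTR and Neu overlapped, and all Neu+NETS libraries lay well below both. The log2 fold change was 0.048 ± 0.040 (adjusted p = 0.341) in Neu and -0.64 ± 0.040 (adjusted p = 1.1e-09) in Neu+NETS.

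Psme2, which encodes PA28 beta beside Psme1 on chromosome 14, measured 27.9, 36.9, 33.5 and 31.2 FPKM in CTR, 35.6, 31.7, 35.7 and 30.05 in Neu and 19.4, 21.1, 25.4 and 25.8 in Neu+NETS. Its Neu+NETS libraries were below all others, at -0.55 ± 0.10 (adjusted p = 1.9e-04) against CTR, and Neu gave 0.10 ± 0.10 (adjusted p = 0.434). Psme2b, an intron-poor copy of Psme2 on chromosome 11, measured 50.3, 35.03, 31.04 and 36.5 FPKM in CTR, 29.03, 34.7, 28.1 and 37.2 in Neu and 30.1, 19.8, 22.9 and 20.3 in Neu+NETS. CTR replicate 1 was highest and Neu+NETS replicate 1 overlapped Neu; the change was -0.76 ± 0.15 (adjusted p = 4.4e-04) in Neu+NETS and -0.19 ± 0.15 (adjusted p = 0.303) in Neu. The 2 genes may share reads, so their split is uncertain, and together they summed to 64.5 to 78.2 FPKM in CTR, 63.8 to 67.2 in Neu and 40.8 to 49.5 in Neu+NETS.

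Psme3, which encodes the nuclear activator PA28 gamma, did not follow its relatives. It measured 58.2, 56.8, 59.6 and 60.5 FPKM in CTR, 34.04, 32.6, 34.03 and 33.7 in Neu and 72.1, 68.9, 68.01 and 72.7 in Neu+NETS. The groups lay apart with Neu lowest (log2 change -0.75 ± 0.030, adjusted p = 1.8e-12), and Neu+NETS highest, by 0.21 ± 0.030 (adjusted p = 1.7e-05). Psme4, which encodes PA200, a cap of the barrel in the nucleus, measured 14.1, 12.9, 13.6 and 13.9 FPKM in CTR, 12.7, 12.6, 11.9 and 12.3 in Neu and 16.4, 16.6, 16.1 and 17.3 in Neu+NETS. It rose in Neu+NETS by 0.24 ± 0.033 (adjusted p = 1.7e-05). In Neu, all libraries were below those of CTR, at -0.081 ± 0.033 (adjusted p = 0.0521), and the adjusted p was 0.0163 without CTR replicate 2, 0.0382 without Neu replicate 1 and 0.0474 without Neu replicate 2. The inhibitor Psmf1 (PI31), one of the lowest genes of the family, measured 6.36, 6.65, 6.20 and 6.52 FPKM in CTR, 5.37, 5.06, 5.18 and 5.44 in Neu and 7.999, 8.87, 7.46 and 8.12 in Neu+NETS. It was lower in Neu (log2 change -0.23 ± 0.050, adjusted p = 7.1e-04) and higher in Neu+NETS by 0.28 ± 0.050 (adjusted p = 1.5e-04), with no overlap.

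Relative to the 20S sum, PA28 alpha and beta (Psme1, Psme2 and Psme2b) stood at 0.101 to 0.115 in CTR, 0.113 to 0.119 in Neu and 0.0575 to 0.0664 in Neu+NETS; CTR and Neu overlapped and Neu+NETS lay below both. Leaving out the copy Psme2b gave 0.0679 to 0.0758 in CTR, 0.0789 to 0.0855 in Neu and 0.0410 to 0.0471 in Neu+NETS, so that Neu then lay above CTR with no overlap. The sum of Psme1 and Psme2 itself was 76.7 ± 5.22 FPKM in CTR and 77.4 ± 2.96 in Neu (SD), while the 20S sum was 1073 and 943. The immunoproteasome genes were also lower in Neu+NETS: Psmb8, Psmb9 and Psmb10 changed by -0.69 ± 0.034, -1.08 ± 0.064 and -1.30 ± 0.049 (adjusted p = 5.8e-11, 4.8e-10 and 1.6e-12), beside -0.034 ± 0.037, -0.28 ± 0.035 and 0.19 ± 0.045 for their constitutive counterparts Psmb5, Psmb6 and Psmb7. In Neu, Psmb10 was lower than in CTR (log2 change -0.49 ± 0.048, adjusted p = 1.4e-07), and Psmb8 and Psmb9 were not called, at -0.053 ± 0.034 (adjusted p = 0.212) and 0.039 ± 0.063 (adjusted p = 0.641). The ratio of the inducible to the constitutive sums was 0.290 to 0.314 in CTR, 0.251 to 0.270 in Neu and 0.156 to 0.164 in Neu+NETS.

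**Figure D3:**
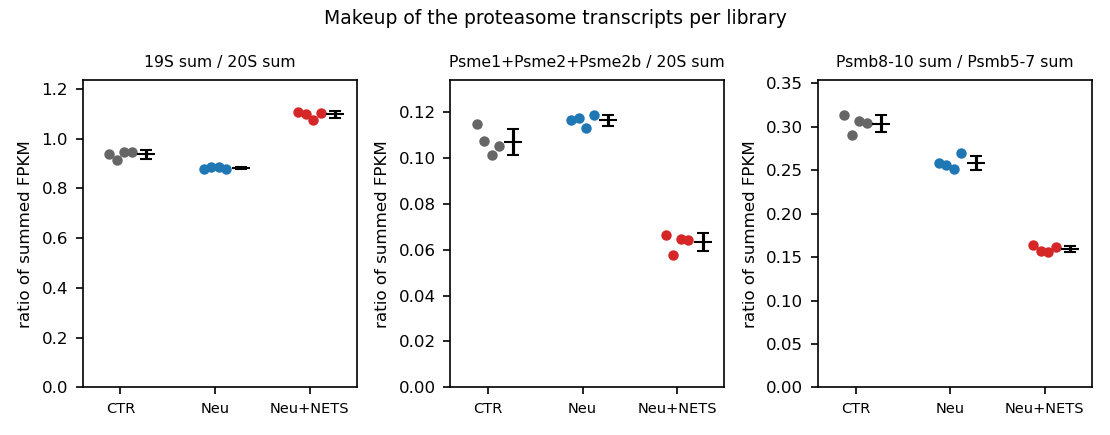
Ratios of summed FPKM (19S to 20S, PA28 alpha and beta to 20S, and inducible Psmb8 to Psmb10 to constitutive Psmb5 to Psmb7) per library (points) with group mean and SD (bars, n = 4). The 19S to 20S ratio is highest in Neu+NETS, at 1.076 to 1.107, where the PA28 and inducible ratios are lowest.

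Most assembly chaperones were lower in Neu: 6 of 7 were lower and 1 higher than in CTR, with a median log2 fold change of -0.44, and in Neu+NETS 4 were higher and 1 lower. Of all genes tested, 27.9% were lower and 26.1% higher in Neu, and 21.6% higher and 23.7% lower in Neu+NETS. Psmg3, which with Psmg4 builds the alpha ring, measured 7.48, 7.67, 7.44 and 7.49 FPKM in CTR, 3.96, 4.25, 3.31 and 3.82 in Neu and 9.92, 9.06, 9.45 and 8.83 in Neu+NETS. All Neu libraries were below all of CTR, a change of -0.91 ± 0.074 (adjusted p = 1.4e-08), and all Neu+NETS libraries were above CTR, by 0.26 ± 0.072 (adjusted p = 0.00717). The gap between the co-cultures, 1.17 ± 0.074 (adjusted p = 3.2e-10), was the widest of any subunit or chaperone. Its partner Psmg4 measured 34.6, 36.3, 31.8 and 35.1 FPKM in CTR, 22.2, 22.3, 24.9 and 22.8 in Neu and 35.8, 38.5, 33.7 and 33.02 in Neu+NETS. Psmg4 was lower in Neu (log2 change -0.52 ± 0.073, adjusted p = 1.0e-05), and Neu+NETS overlapped CTR at -0.017 ± 0.073 (adjusted p = 0.881).

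Psmg1 and Psmg2 form the other pair of alpha ring chaperones. Psmg1 measured 26.7, 27.04, 28.6 and 26.7 FPKM in CTR, 19.6, 20.2, 19.7 and 21.2 in Neu and 25.95, 29.2, 27.7 and 28.6 in Neu+NETS. It fell in Neu (log2 change -0.38 ± 0.048, adjusted p = 3.9e-06), and in Neu+NETS its values overlapped CTR, at -0.017 ± 0.048 (adjusted p = 0.809). Psmg2 measured 31.7, 31.4, 31.9 and 28.7 FPKM in CTR, 19.3, 19.8, 18.9 and 20.3 in Neu and 34.004, 34.5, 37.8 and 34.04 in Neu+NETS. Neu was again lowest (log2 change -0.60 ± 0.048, adjusted p = 1.2e-08). The rise in Neu+NETS, 0.13 ± 0.048 (adjusted p = 0.0303), was lost without CTR replicate 4 (adjusted p = 0.0978), the lowest of its group, or without Neu+NETS replicate 3 (0.117), the highest.

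Psmd5, Psmd9 and Psmd10 help to assemble the ATPase ring of the base. Psmd5 measured 12.5, 13.03, 13.4 and 14.3 FPKM in CTR, 10.8, 10.6, 11.03 and 10.9 in Neu and 15.97, 16.2, 15.96 and 15.5 in Neu+NETS. It was lower in Neu (log2 change -0.24 ± 0.037, adjusted p = 2.9e-05) and higher in Neu+NETS by 0.21 ± 0.037 (adjusted p = 1.7e-04), with no overlap. Psmd9, the lowest tested gene of the family in CTR, measured 4.65, 4.99, 4.78 and 4.47 FPKM in CTR, 3.36, 3.49, 3.17 and 3.35 in Neu and 5.86, 5.14, 5.47 and 5.55 in Neu+NETS. It fell (log2 change -0.44 ± 0.056, adjusted p = 3.0e-06) in Neu; the rise in Neu+NETS, 0.17 ± 0.055 (adjusted p = 0.0175), was lost without CTR replicate 4 (adjusted p = 0.0542) or Neu+NETS replicate 1 (0.0633). Psmd10, also known as gankyrin, measured 21.6, 18.4, 20.3 and 20.9 FPKM in CTR, 22.4, 24.4, 20.8 and 22.3 in Neu and 18.8, 19.004, 17.6 and 18.5 in Neu+NETS. Its groups overlapped in part, yet it was called higher in Neu, by 0.20 ± 0.060 (adjusted p = 0.0078), and lower in Neu+NETS (log2 change -0.18 ± 0.060, adjusted p = 0.0189). The second call was lost without CTR replicate 1 (0.0736) or Neu+NETS replicate 3 (0.0597).

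The 2 genes that match by name only differed from each other. Psmc3ip, a recombination factor of dividing and meiotic cells, measured 6.40, 8.61, 7.93 and 6.28 FPKM in CTR, 2.91, 2.51, 1.98 and 1.91 in Neu and 7.89, 8.41, 6.87 and 8.08 in Neu+NETS. All Neu libraries were lowest, and the change of -1.59 ± 0.14 (adjusted p = 4.2e-08) was the largest of the 46; Neu+NETS overlapped CTR, at 0.046 ± 0.13 (adjusted p = 0.82). It overlaps Mlx in the genome, so its count is uncertain where reads could belong to either. Psme3ip1, which encodes a partner of PA28 gamma, had group means of 12.96 FPKM in CTR, 11.5 in Neu and 13.2 in Neu+NETS. It had 0 calls in the main edgeR fit, but other settings called it. In Neu against CTR its adjusted p was 0.013 without CTR replicate 2, 0.00961 with limma on log2(FPKM + 1) and 0.0427 without scaling beyond totals. Between the co-cultures it was 0.0379 without Neu+NETS replicate 3, 0.00333 with limma on log2(FPKM + 1) and 0.0104 without scaling beyond totals.

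Partners of the proteasome were taken from a list of 40 genes, of which 39 were analysed here. In Neu, 22 (56.4%) were lower and 11 (28.2%) higher than in CTR, with a median of -0.15; 27.9% of all genes tested were lower and 26.1% higher, so the share that rose was near that of all genes. In Neu+NETS, 20 (51.3%) were higher and 5 (12.8%) lower than in CTR, against 21.6% and 23.7%, with a median of 0.14. Neu+NETS exceeded Neu for 25 (64.1%) and was below it for 8 (20.5%), against 29.4% and 33.1%, with a median of 0.29. Adrm1, a ubiquitin receptor of the 19S, changed in both co-cultures, by -0.56 ± 0.039 (adjusted p = 1.6e-09) in Neu and 0.29 ± 0.038 (adjusted p = 8.0e-06) in Neu+NETS, at means of 23.4 FPKM in CTR, 15.2 in Neu and 29.6 in Neu+NETS. Sem1, the smallest lid subunit, rose in Neu by 0.36 ± 0.084 (adjusted p = 0.0015) and gave -0.13 ± 0.085 (adjusted p = 0.252) in Neu+NETS. Its means were 11.5 FPKM in CTR, 14.3 in Neu and 10.9 in Neu+NETS, and Neu replicate 4, at 11.6, lay within the CTR range. Usp14, a deubiquitinase bound to the 19S, was lower in Neu (log2 change -0.29 ± 0.032, adjusted p = 5.7e-07) and gave 0.017 ± 0.032 (adjusted p = 0.707) in Neu+NETS.

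Of the genes of the unfoldase that hands substrates to the proteasome, 6 of 6 were higher in Neu+NETS than in CTR, and in Neu 4 were lower and 1 higher. Vcp, its ATPase, had means of 51.2 FPKM in CTR, 40.3 in Neu and 71.2 in Neu+NETS, changing by -0.29 ± 0.028 (adjusted p = 1.3e-07) and 0.43 ± 0.028 (adjusted p = 1.7e-09). Its cofactor Nploc4 changed by -0.34 ± 0.027 (adjusted p = 1.4e-08) and 0.39 ± 0.027 (adjusted p = 3.9e-09). The 4 shuttle factors analysed, which carry ubiquitinated proteins, were all lower in Neu, and in Neu+NETS 2 were higher and 0 lower. Of the 5 genes analysed of ubiquitin and its activating enzymes, 4 were higher and 1 lower in Neu, and 3 were higher and 0 lower in Neu+NETS. These classes hold 4 to 6 genes each, and of all genes tested 26.1% were higher and 27.9% lower in Neu and 21.6% higher and 23.7% lower in Neu+NETS.

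Among factors that make or assemble the proteasome, Nfe2l1 was close to level. It stood at 24.4 FPKM in CTR, 25.4 in Neu and 25.5 in Neu+NETS, a log2 fold change of 0.11 ± 0.030 (adjusted p = 0.00365) in Neu, not called by limma on log2(FPKM + 1) (0.141), and 0.016 ± 0.030 (adjusted p = 0.703) in Neu+NETS; NRF1 is known to be controlled by protein processing, which these data do not measure. Nfya, a DNA-binding subunit of NF-Y, was lower in both, at -0.62 ± 0.033 (adjusted p = 5.3e-11) and -0.45 ± 0.032 (adjusted p = 5.7e-09). Pomp, which matures the 20S, was lower in Neu (log2 change -0.15 ± 0.057, adjusted p = 0.0397), a call lost with DESeq2 (0.0838) and without CTR replicate 1 (0.0643) or 2 (0.143) or Neu replicate 1 (0.0865) or 4 (0.143). It rose in Neu+NETS by 0.18 ± 0.057 (adjusted p = 0.0166), a call lost without CTR replicate 4 (0.053). Ipo9, a nuclear importin of the proteasome, fell in Neu (log2 change -0.40 ± 0.023, adjusted p = 1.9e-10) and gave -0.0094 ± 0.023 (adjusted p = 0.784) in Neu+NETS, and Akirin2, its adaptor, gave 0.11 ± 0.060 (adjusted p = 0.126) and 0.14 ± 0.060 (adjusted p = 0.0791).

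Peptidases that trim the proteasome's products went separate ways. Npepps, a cytosolic aminopeptidase, rose in Neu by 0.81 ± 0.032 (adjusted p = 1.4e-12), the largest rise of the list, at means of 11.7 FPKM in CTR, 19.8 in Neu and 10.9 in Neu+NETS. Thop1, an oligopeptidase, had the opposite order, with means of 39.6 FPKM in CTR, 23.7 in Neu and 48.6 in Neu+NETS and changes of -0.68 ± 0.039 (adjusted p = 1.6e-10) and 0.25 ± 0.039 (adjusted p = 4.6e-05). Erap1, which trims peptides in the endoplasmic reticulum for MHC class I, was lower in both co-cultures, at -0.47 ± 0.047 (adjusted p = 1.9e-07) and -0.63 ± 0.047 (adjusted p = 1.1e-08).

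**Figure D4:**
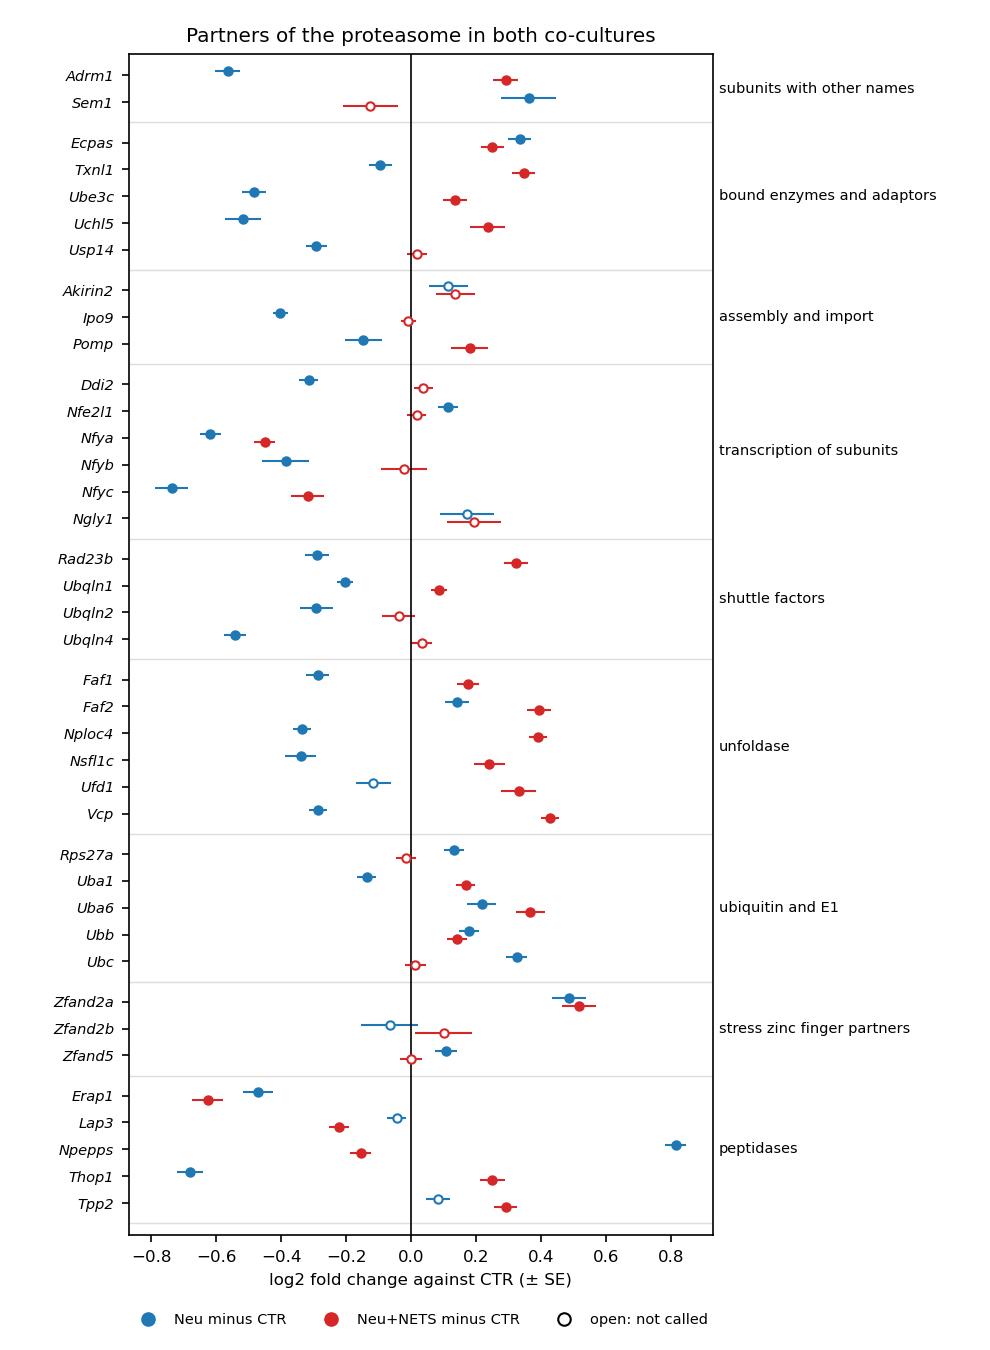
Log2 fold change against CTR with its SE for the 39 analysed partner genes, grouped by role, in Neu (blue) and Neu+NETS (red), with open points for genes not called. All 6 unfoldase genes have red points right of 0, all 4 shuttle factors have blue points left of 0, and Npepps has the blue point farthest right, at 0.81.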

How the data were processed

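The sources used here hold 1 table of 27487 genes with, for each of 12 libraries, estimated counts and FPKM that the authors deposited, per the file headers; 0 columns of per-sample values were unmatched. Build GRCm39 and the tools StringTie 1.3.4d, HISAT2 2.0.4 and edgeR are listed, with neither role nor order, per the submitters' processing notes. No source used here gives the annotation, strand setting or filters. The deposited estimated counts are whole numbers, and 33.0% of values from 2 to 41 are multiples of 4, where an even spread gives 25%. About 4 units thus appear to stand for a fragment, in which case totals overstate depth. Genes that overlap others, among them Psmb7, Psmc3ip, Psma2, Psmc3, Psmd13, Psme1, Psme2b, Psme3ip1 and the immunoproteasome gene Psmb9, could share reads with them.

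Counts were used as deposited. edgeR 4.0.16 (R 4.3.3) kept 16387 genes (filterByExpr), scaled by TMM (factors 0.970 to 1.03) and fitted all 12 libraries in 1 quasi-likelihood model with a mean per group; the biological coefficient of variation was 12.5%. The fitting code was also run on simulated data in which few genes changed, which does not test the scaling where many do, as here. SE is the log2 fold change over the square root of F. Summed FPKM and their ratios were not tested. Alternatives used DESeq2 1.42.0, limma 3.58.1 on log2(FPKM + 1) or log2(FPKM + 0.1), other scalings and filters, counts divided by 4, a replicate block, and each library left out. All 18 pairs of libraries within groups differed beyond sampling noise as reckoned on counts divided by 4 and rounded (chi-square per degree of freedom 1.85 to 4.46). The division was meant to put them near the apparent number of fragments. No pair was taken as the same library sequenced again. The measure depends on that divisor and on estimated counts, so it cannot exclude this. It also cannot tell separate cultures from separate preparations of 1 culture.

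The family, its classes and the gene lists were chosen with earlier results of these data known. Values in every library are given for the 5 highest and 5 lowest log2 fold changes of each comparison, all activators, the inhibitor and chaperones, and the 3 genes with the highest mean FPKM; Psma6 was added after its values were seen. Of the partners, up to 4 called genes with the smallest adjusted p per comparison and 6 set ones are named. Ltf, Ly6g, Padi4, Retnlg, S100a9, Rlbp1 and Paaf1 were not analysed here, and a few other genes of the lists are not reported here. Promoters came from a RefSeq table on GRCm38.p6; Psmb1, Psmb2, Psmb7, Psmc3, Psmd3, Psmd7 and Psmg2 did not match.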

Additional observations from a re-analysis of the deposited data

Results flagged for a closer look

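In 7 of 138 sets of 4 libraries (5.07%), 1 library lay far from the other 3 by Dixon's test, which about 5% of groups pass by chance. Neu replicate 4 was the library in 3 of them: Psmd1 measured 25.04 FPKM there against 23.7 to 23.9, Psmd3 34.7 against 30.0 to 30.7, and Psmb2 59.1 against 62.3 to 62.6. CTR replicate 2 was high for Psma7, at 55.3 against 52.5 to 52.8 FPKM, and for Psmb5, at 176 against 160.4 to 163. Psmg2 was low in CTR replicate 4, at 28.7 against 31.4 to 31.9 FPKM, and high in Neu+NETS replicate 3, at 37.8 against 34.0 to 34.5.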

How the results depend on the processing

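Over 23 alternative settings, 3090 of 3174 values of the family kept their call; 8 calls were lost and 12 gained in at least 1 setting, 0 called values changed sign, and 11 uncalled ones did. Genes called ranged from 2 to 4 higher and 30 to 39 lower in Neu against CTR, 29 to 34 and 4 to 5 in Neu+NETS against CTR, and 37 to 40 and 6 to 6 between the co-cultures; leaving out 1 library gave 3 to 3 and 30 to 34, 29 to 33 and 4 to 5, and 38 to 39 and 6 to 6. Replicate numbers did not pair the libraries (correlations -0.055 to 0.043); a replicate block gave 3 higher and 33 lower, 33 and 5, and 38 and 6, with Psma7 in Neu (-0.083, adjusted p = 0.0158) and Psma2 in Neu+NETS (0.11, adjusted p = 0.0459) gained. Partner genes called higher in Neu fell from 11 to 7 with limma on log2(FPKM + 1) without a filter, and those lower in Neu+NETS than in Neu from 8 to 4 in each of 3 limma settings and to 5 without scaling beyond totals. Of 2898 values of the partner and immunoproteasome genes, 2797 kept their call and 4, called in 1 setting or the other, changed sign, all between the co-cultures with limma: Nfe2l1 from -0.097 to 0.0085 (0.0088 with a pseudocount of 0.1) and Ubb, called at an adjusted p of 0.0499, to 0.067. Summing TMM-scaled counts per kilobase in place of FPKM gave folds, for Neu to CTR, Neu+NETS to CTR and Neu+NETS to Neu, of 0.914, 1.076 and 1.18 for the 20S (main 0.879, 1.11 and 1.27) and 0.861, 1.26 and 1.47 for the 19S (main 0.828, 1.31 and 1.58), and 0.641 for PA28 alpha and beta between the co-cultures (main 0.689). The centre of all genes also moved: with limma on log2(FPKM + 1), over 11250 genes in place of 16387, the median log2 difference was -0.089 in Neu against CTR (main 0.020) and 0.11 between the co-cultures (main -0.049), and all genes split into 3048 higher and 4984 lower (main 4284 and 4578), 3980 and 2763 (main 3535 and 3885) and 5279 and 3413 (main 4819 and 5422). Without a filter, limma on all 27487 genes gave 3989 and 4961, 3982 and 3033, and 5568 and 4776, with medians of 0.0000, 0.0014 and 0.0000; the cause was not tested. With the filter, family medians were -0.27 and 0.26 against CTR, and Psmd10 in Neu+NETS lost its call (adjusted p = 0.0523). Psmb11 was too low to test at this depth.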

Other observations

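The 31 tested genes of the 20S and 19S made up 0.692 to 0.717% of all FPKM in CTR, 0.605 to 0.630% in Neu and 0.846 to 0.860% in Neu+NETS, with no overlap. The pseudogene Psma5-ps, which could take reads from Psma5, had means of 7.58 FPKM in CTR, 6.35 in Neu and 10.6 in Neu+NETS. Zfand2a, a stress-induced partner of the proteasome, rose in both co-cultures, by 0.49 ± 0.052 (adjusted p = 4.5e-07) in Neu and 0.52 ± 0.052 (adjusted p = 3.8e-07) in Neu+NETS (chosen after its values were seen). Rad23b, a shuttle factor, was lower in Neu (log2 change -0.29 ± 0.037, adjusted p = 2.9e-06) and higher in Neu+NETS by 0.32 ± 0.036 (adjusted p = 1.4e-06) (also chosen after its values were seen).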
